A study of Mus musculus with 185 samples.

Results

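The genes described here are 9 mouse cytokine genes whose products steer the polarization of T cells: Tnf, Il6, Il10, Il12a, Il12b, Il15, Il23a, Il27 and Ebi3. They were taken by name from the 45661 genes for which reads were counted in single epidermal Langerhans cells (LCs), the antigen-presenting cells of the outer skin. The cells came from bone marrow chimeras (BMC), in which B6 Cd207DTR mice carrying CD45.1 were lethally irradiated and given wild-type (WT) bone marrow carrying CD45.2. Cd207DTR mice have the receptor for diphtheria toxin (DT) in the Cd207 gene, which encodes Langerin, so DT kills cells that make Langerin. All hosts later received a low dose of DT (5 ng for each gram they weighed), and the cells were sorted 2 months after it. Host cells (CD45.1, with the DTR allele) are embryonic LCs (eLCs) that were present after a toxin dose meant to spare some of them, and donor cells (CD45.2, without the allele) are monocyte-derived LCs (moLCs). Both origins therefore came from irradiated, DT-treated skin, and no cells from untreated skin were compared. The sort gate asked for CD11c, CD11b, CD24, MHCII and CD326 and against lineage markers of T, B and NK cells, neutrophils and eosinophils, and the congenic CD45 marker of each sorted cell gave its origin. The labels give no age and name no animal, so each origin is 1 sample, no test was made, and cells are not replicates of an origin.

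A dendritic cell that meets a T cell gives it antigen, costimulation and cytokines, and the cytokines decide which helper program the T cell takes up. IL-12, a dimer of the p35 subunit (Il12a) and the p40 subunit (Il12b), drives Th1 cells. IL-23 pairs p19 (Il23a) with the same p40 and maintains Th17 cells, IL-6 helps to start them, and IL-27 (p28 from Il27 with EBI3) and IL-10 hold them back. LCs are known for inducing Th17 responses to microbes on the skin and for tolerance at steady state.

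After cells with more than 5% of their reads on mitochondrial genes were left out, 182 cells remained, and the 3 left out were moLCs of plate 2. Of the moLCs kept, 67 were on plate 1 and 36 on plate 2, and of the 79 eLCs, 29 and 50. A cell had between 432614 and 4525429 reads on genes, and the median was 2948819 in moLCs and 2779080 in eLCs. Levels are given as CPM, the reads of a gene summed over the cells of an origin for every 1000000 reads on genes. The 95% intervals on sums and ratios (Poisson and binomial) and on shares (Clopper-Pearson) cover no more than counting error. Those on sums and ratios treat reads as independent. Since the library kit has no molecular identifiers, PCR copies count as reads, so these intervals are too narrow even as counting error. All 10 LC markers were read in each origin, though not all widely. Cd207 had reads in all but 1 moLC and in every eLC, and Epcam, which encodes CD326, in all but 1 cell of each origin. Cd74, H2-Ab1 and Mfge8 had reads in every cell, and Csf1r in 96.1% of moLCs and 97.5% of eLCs. Ptprc, Itgax and Cd24a had reads in 69.6% to 79.7% of an origin's cells. Itgam, which encodes CD11b, had reads in 35.9% of moLCs and 34.2% of eLCs. Of 5 monocyte markers, Ccr2 and Vcan had reads in moLCs and Ly6c2 and Plac8 in eLCs, Chil3 was at 0 in both, and the highest summed level in a cell was 24.9 CPM among moLCs and 0.59 CPM among eLCs. Of 10 keratinocyte markers 7 were read in each origin, with a sum of 28.6 CPM over moLCs and 5.63 CPM over eLCs. Their summed level reached 686 CPM in a moLC and 95.3 CPM in an eLC. Of 10 T cell markers 4 were read in each origin, with sums of 7.0 and 8.68 CPM and up to 397 and 244 CPM in a cell. Cd3g, Lck and Cd4 had reads in both origins, Trac in moLCs and Cd3d in eLCs, while Cd3e and Trdc were at 0 in all cells.

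One moLC of plate 1 stood apart and bears on several results, so values are also given without it. It held the most reads of Il10 (7796) and of Il23a (5491) of all 182 cells, and with 2205981 reads in total it had 6690 genes read, where the median cell had 4216 and 1 cell had more. Its Il1b level of 29368 CPM was above that of each of the other 181 cells, and its Cd207 level of 42.6 CPM was below that of 180 of them. The 10 genes raised most in it over the mean of the other cells were, in order, Inhba, Alox15, Clec4e, Tarm1, Il1a, Il23a, Aqp3, Anxa8, Car2 and Il10. Genes lowered in it were not ranked. Inhba, for the activin A subunit, was at 3775 CPM in it and at 1.01 CPM on average in the others, and Clec4e, for the pattern receptor Mincle, was at 1498 and 0.209 CPM. Of the 10 LC markers, Epcam was at 1077 CPM in it, against a median of 655 CPM in the other cells. Ptprc, Itgax and Cd24a were also above the medians of the other cells, at 155, 134 and 144 CPM. Csf1r (36.3 CPM) and Mfge8 (1182 CPM) were low, with 172 and 175 cells above this cell. Cd74 and H2-Ab1 had 169 and 155 cells above, and Itgam was at 0. Cd14 was at 4495 CPM, above each other cell. Outside the marker lists, the genes named for this cell were chosen after their values were seen. Xcr1 and Batf3, which mark cross-presenting dendritic cells, were at 172 and 114 CPM in this cell, above each other cell, whereas Clec9a and Itgae of the same list were at 0 and Irf8 was at 122 CPM with 53 cells above it. Of the monocyte markers Ccr2 was at 11.8 CPM and the other 4 were at 0. The part of any other cell type in this cell was not tested.

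Upstream stretches are shown for 4 of the genes so that the members read most widely (Tnf and Ebi3) can be set beside members with no read in any cell kept (Il6 and Il12b). Each is the 250 bases before the transcription start in RefSeq (build GRCm38.p6), 5′ to 3′ on the strand of the gene. The RefSeq table held 5 of the 9 members. Capitals mark matches, on either strand, to a kappaB motif for NF-kappaB (GGGNNNNNCC), an AP-1 motif (TGANTCA) and a TATA motif (TATAA).
Tnf, chr17:35202008-35202257, minus strand: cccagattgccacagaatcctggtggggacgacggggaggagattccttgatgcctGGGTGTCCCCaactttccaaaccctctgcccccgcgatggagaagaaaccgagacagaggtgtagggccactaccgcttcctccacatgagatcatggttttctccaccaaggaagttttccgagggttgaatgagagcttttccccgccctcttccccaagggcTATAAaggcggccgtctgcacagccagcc
Ebi3, chr17:55952373-55952622, plus strand: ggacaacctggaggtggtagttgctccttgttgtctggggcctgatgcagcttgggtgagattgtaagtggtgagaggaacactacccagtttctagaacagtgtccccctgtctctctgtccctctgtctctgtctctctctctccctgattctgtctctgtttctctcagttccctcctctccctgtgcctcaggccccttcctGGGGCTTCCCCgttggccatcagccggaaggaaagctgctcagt
Il6, chr5:30012864-30013113, plus strand: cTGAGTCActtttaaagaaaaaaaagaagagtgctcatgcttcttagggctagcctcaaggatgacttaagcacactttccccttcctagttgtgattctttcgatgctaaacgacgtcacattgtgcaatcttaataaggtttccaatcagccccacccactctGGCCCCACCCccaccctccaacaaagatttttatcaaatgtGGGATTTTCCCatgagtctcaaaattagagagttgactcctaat
Il12b, chr11:44399813-44400062, plus strand: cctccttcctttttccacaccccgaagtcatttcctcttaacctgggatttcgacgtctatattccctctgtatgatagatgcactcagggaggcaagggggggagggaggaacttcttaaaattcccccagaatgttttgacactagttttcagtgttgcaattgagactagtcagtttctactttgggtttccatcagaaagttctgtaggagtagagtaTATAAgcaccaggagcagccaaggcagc
The kappaB letters, which are loose, were found in 45.8% of the 32851 upstream stretches of this length in the table, the AP-1 letters in 6.75% and the TATA letters in 22.8%. Tnf had a kappaB match at positions -194 to -185 from the start and a TATA match at -29 to -25. Ebi3 had overlapping kappaB matches between -44 and -34 and no match to the other motifs. Il6, which had no read in the cells kept, had kappaB matches at -85 to -76 and between -44 and -34 and an AP-1 match at -249 to -243. Il12b had a TATA match at -28 to -24 and none to the letters of the other motifs. Il12a, not shown and also without a read, had 2 start sites in the table. One had overlapping kappaB matches between -113 and -103, and the other had no match to any motif. Of the members that were read, only Tnf and Ebi3 were in the table. Among these 5 members, those that were read and those that were not both include a kappaB match and a TATA match.

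Of the 9 genes, 6 were read in the cells kept and 3, Il6, Il12a and Il12b, were not. Tnf, Il10 and Ebi3 had a read in 25% or more of the cells of an origin, a mark that 6522 of all genes (14.3%) reached. Per kilobase of exon, which allows levels of different genes to be compared, the order in moLCs was Tnf (262 CPM per kb), Il10 (32.1), Ebi3 (27.8), Il23a (11.3), Il27 (3.17) and Il15 (0.641). In eLCs it was Tnf (159 CPM per kb), Ebi3 (32.5), Il10 (8.20), Il27 (1.66), Il23a (1.26) and Il15 (1.24). Il23a and Il15 in eLCs were within counting error of each other (1.17 to 1.37 and 1.15 to 1.35 CPM per kb). Without the 1 moLC that stood apart, Il10 fell to 12.3 and Il23a to 3.15 CPM per kb in moLCs of both plates together. This put Ebi3 second, as in eLCs, and left Il23a and Il27 (3.20) next to each other. The plates differed, however. In moLCs of plate 2, which did not hold that cell, Il10 (28.6) was above Ebi3 (12.5). On plate 1 Ebi3 (35.9) was above Il10 (33.9) even with that cell. Tnf was therefore the leading member in both origins on either count. In moLCs the order below it depended on the cell that stood apart and on the plate. In eLCs Ebi3 was above Il10 on plate 1 (33.65 and 9.38 CPM per kb) and on plate 2 (31.74 and 7.40). The order of Il27, Il23a and Il15 in eLCs rested on few cells and differed between the plates.

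**Figure D1:**
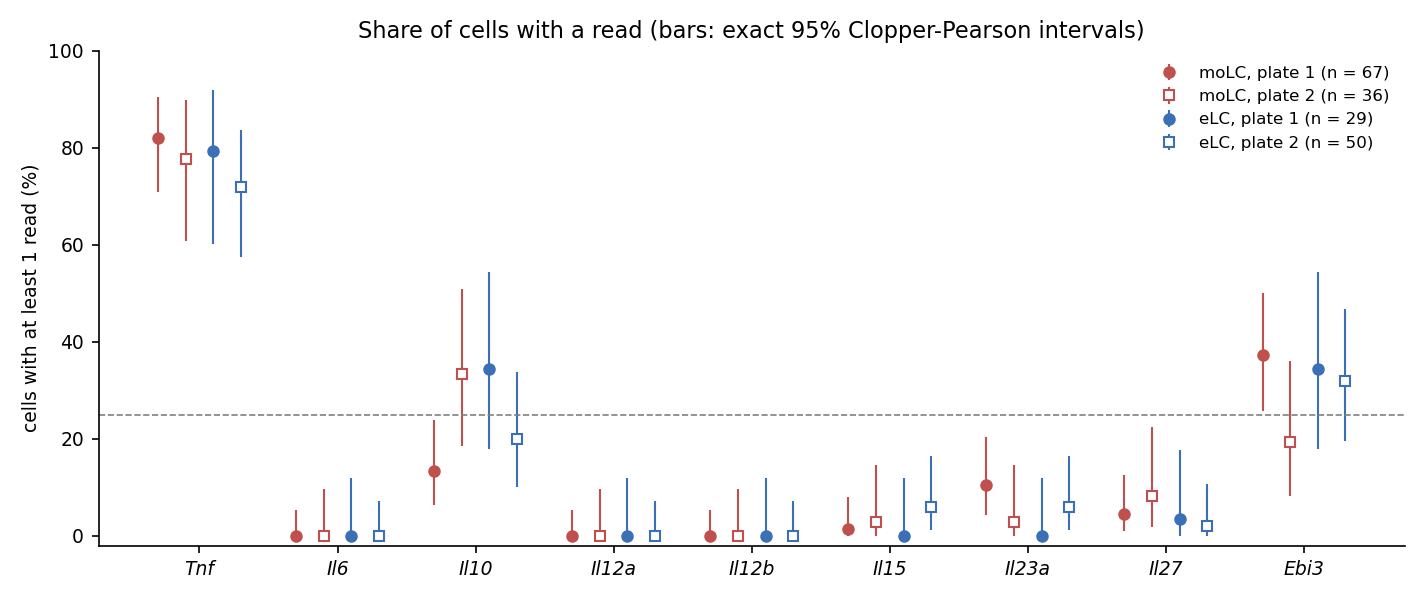
Share of cells with at least 1 read (percent, vertical axis) for each of the 9 genes, by origin and plate, with exact 95% Clopper-Pearson intervals as bars and the 25% mark as a dashed line. Tnf lies between 72% and 82.1% in the 4 sets of cells, Il10 and Ebi3 between 13.4% and 37.3%, and the other 6 genes at or below 10.4%.

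Between origins, a size rule stood in for a test: a gene needed a read in 25% or more of the cells of an origin and a difference of 2-fold or more (1 on the log2 scale) that had the same direction on plate 1, on plate 2 and on both together. Of the 6522 genes with enough reads, 132 (2.02%) passed in either direction and 53 (0.813%) as higher in moLCs. Of the 3 members with enough reads, 1 passed, Il10, as higher in moLCs. Without the moLC that stood apart no member passed. At a lower mark of 5% of cells, 888 of 11635 genes (7.63%) passed and, of 5 members with enough reads, again 1, Il10. With 3 members to count, the share that passed cannot be set against that of all genes. The median log2 ratio of moLCs over eLCs among the 6522 genes was -0.10, with quartiles of -0.36 and 0.15.

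Tnf encodes TNF, an inflammatory cytokine that activates the endothelium, matures dendritic cells and prompts LCs to leave the epidermis (chr17:35199381-35202007, minus strand, GRCm38). Reads were found in 83 moLCs (80.6%, interval 71.6 to 87.7%) and 59 eLCs (74.7%, interval 63.6 to 83.8%). Its level in a cell ran from 0 through a median of 196 CPM to 4920 CPM in moLCs and from 0 through 126 CPM to 3266 CPM in eLCs, so the ranges overlapped almost wholly. The median moLC was at 233 CPM and the median eLC at 188 CPM on plate 1, and on plate 2 the medians were 102.6 and 100.7 CPM. Few cells were far above these medians: 8 moLCs and 3 eLCs exceeded 1000 CPM, and none of the 29 eLCs of plate 1 did.

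Summed over cells, Tnf reached 449 CPM (446 to 452) in moLCs against 187 CPM (184.6 to 190.3) in eLCs of plate 1, which is 1.26 as a log2 ratio. On plate 2 it was at 392 CPM (388 to 396) and 311 CPM (308 to 314), a log2 ratio of 0.33. Both plates together gave 429 and 261 CPM and a log2 ratio of 0.72 (0.70 to 0.73). The higher sum in moLCs passed 2-fold on plate 1 and not on plate 2, so the gene did not pass the size rule. The ratio also moved with single cells. On plate 2, 1 moLC held 14722 of the 40928 Tnf reads of moLCs (36%), and without it the log2 ratio there was -0.26. On plate 1 the ratio stayed above 2-fold with any cell left out. In each origin the 9 cells with the most Tnf reads held 50% or more of them. Cells with a Tnf read were a little deeper than those without, at a median of 2973955 against 2636004 reads in moLCs and 2850326 against 2578308 in eLCs.

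**Figure D2:**
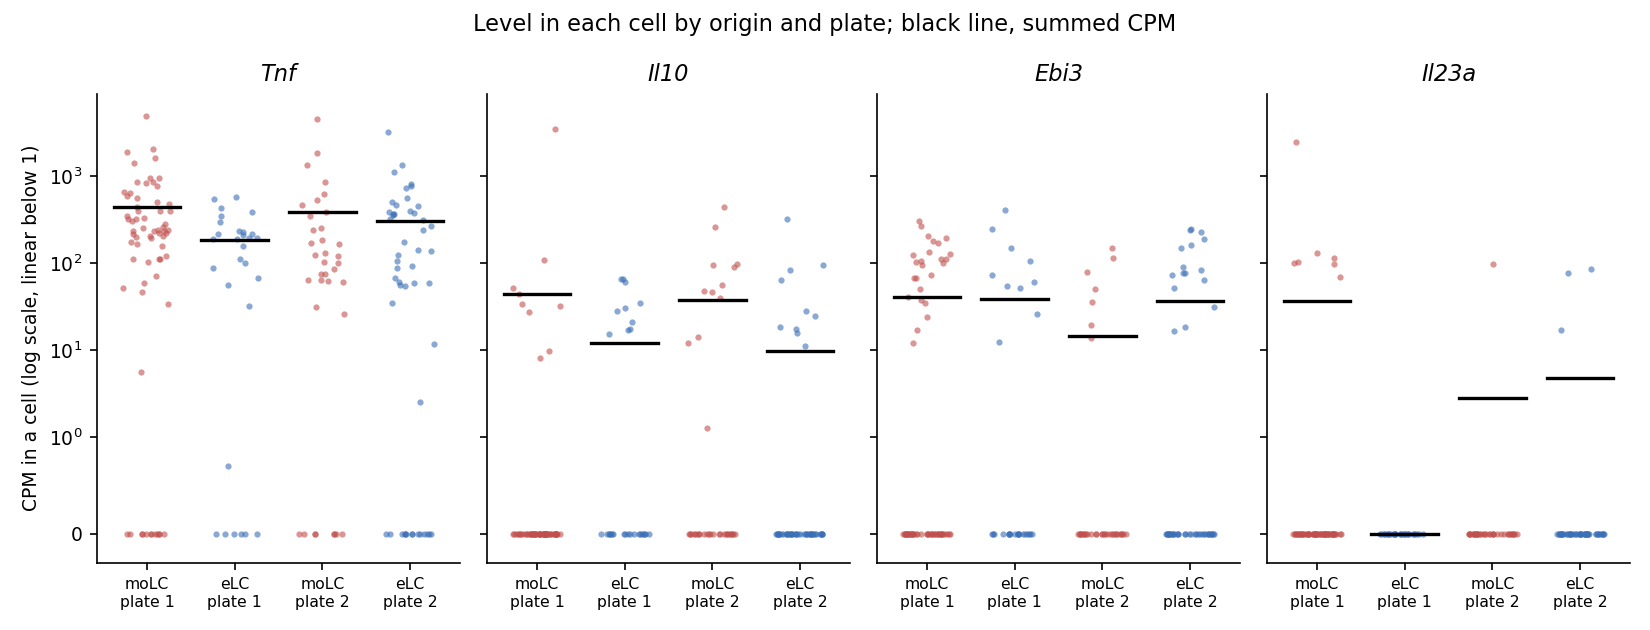
CPM in each cell (vertical axis, log scale that is linear below 1) of Tnf, Il10, Ebi3 and Il23a, by origin and plate (1 point a cell). Black lines are the summed CPM of the set, which for Il10 and Il23a in moLCs of plate 1 (44.4 and 37.3 CPM) sit far above most cells because 1 cell is at 3534 and 2489 CPM.

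Il10 encodes IL-10, which dampens antigen presentation and inflammatory cytokines and favours regulatory T cells (chr1:131019845-131024974, plus strand). A read was present in 21 moLCs (20.4%, interval 13.1 to 29.5%) and 20 eLCs (25.3%, interval 16.2 to 36.4%), so eLCs were just inside the 25% mark and moLCs below it. The shares went opposite ways on the plates: 13.4% of moLCs and 34.5% of eLCs on plate 1, and 33.3% of moLCs and 20% of eLCs on plate 2. The intervals of the shares overlapped on each plate. Among cells with a read, the median moLC was at 33.8 CPM and the median eLC at 29.4 CPM on plate 1, and on plate 2 these were 52.7 and 26.3 CPM.

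The summed level of Il10 was 44.4 CPM (43.5 to 45.4) in moLCs against 12.3 CPM (11.6 to 13) in eLCs of plate 1, which is 1.85 as a log2 ratio. On plate 2 it was 37.4 CPM (36.3 to 38.6) and 9.70 CPM (9.17 to 10.2), a log2 ratio of 1.95, and both plates together gave 42 and 10.7 CPM and 1.97 (1.90 to 2.03). This is the difference that passed the size rule, and on plate 1 it lay in 1 cell. The moLC that stood apart held 89.6% of the Il10 reads of moLCs on plate 1 and 61.8% of those on both plates. Without it the moLCs of plate 1 were at 4.69 CPM, below the eLCs, with a log2 ratio of -1.39, and the pooled log2 ratio was 0.59. On plate 2 the moLC with the most reads held 1780 of 3910, and without it the ratio was 1.13, still above 2-fold. In eLCs the largest share of Il10 reads held by a cell was 13.2%. The call also rested on the 25% mark, since it was lost when any of the 20 eLCs with an Il10 read was left out, beside the loss with the 1 moLC.

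**Figure D3:**
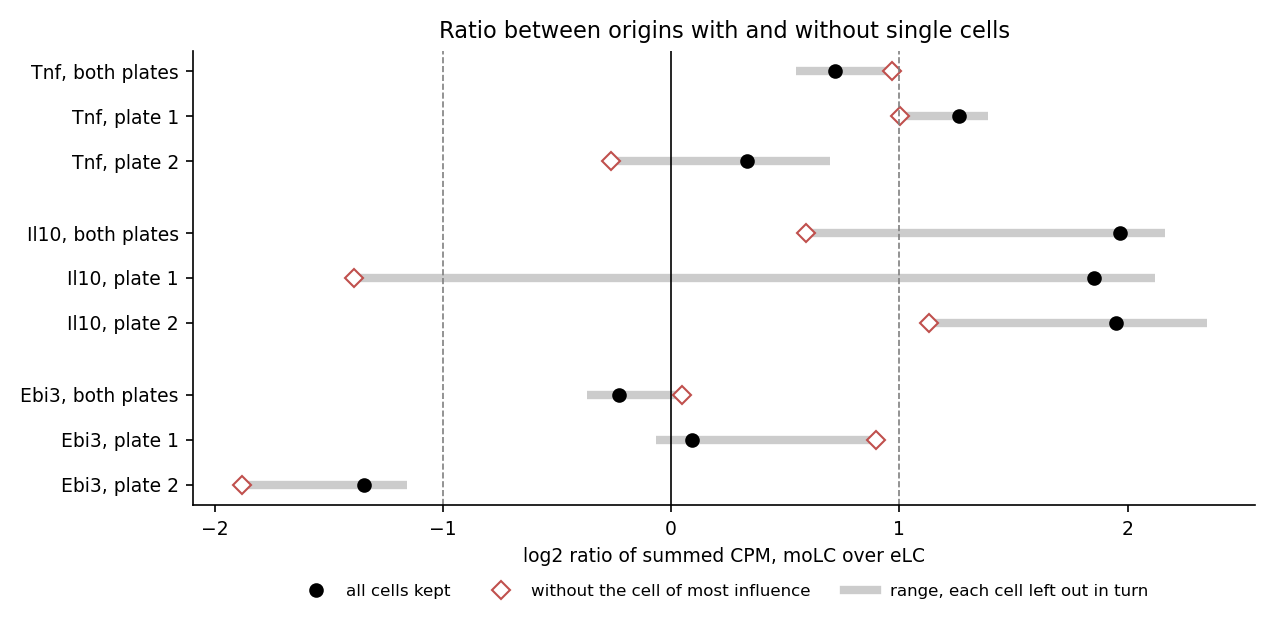
Log2 ratio of summed CPM, moLC over eLC (horizontal axis), of Tnf, Il10 and Ebi3 on both plates and on each plate: black points for all cells kept, open diamonds without the cell whose removal moves the ratio most, grey bars for the range with each cell left out in turn, dashed lines at 2-fold. Without the cell of the diamond the ratio changes sign for Il10 on plate 1 (1.85 to -1.39), for Tnf on plate 2 (0.33 to -0.26) and for Ebi3 on both plates together (-0.23 to 0.05). The grey bar of Ebi3 on plate 1 (0.09 with all cells) also crosses 0, from -0.07 to 0.90.

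Ebi3 encodes the beta subunit that IL-27 (with p28) and IL-35 (with p35) share (chr17:55952640-55957022, plus strand). Of its 1154 exon bases, 23.4% are shared with exons of Gm16712, so reads there can belong to either gene. Reads were present in 32 moLCs (31.1%, interval 22.3 to 40.9%) and 26 eLCs (32.9%, interval 22.7 to 44.4%). Cells with a read had medians of 98.5 CPM (moLCs) and 77.3 CPM (eLCs), and the highest were at 305 and 411 CPM. Summed levels on plate 1 were 41.4 CPM (moLCs) and 38.8 CPM (eLCs), and on plate 2 they were 14.4 and 36.6 CPM. The log2 ratios were 0.09 (0.03 to 0.15) on plate 1 and -1.35 (-1.43 to -1.26) on plate 2, so the level differed by over 2-fold between origins on 1 plate and hardly on the other. On plate 2, the ratio stayed at or below -1.16 with any cell left out, and 7 of 36 moLCs and 16 of 50 eLCs had a read there. On plate 1 it reached 0.90 without 1 eLC that held 1542 reads. The top cell held 10.1% of the Ebi3 reads of moLCs and 18.9% of those of eLCs.

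Il23a encodes p19, the subunit that makes IL-23 distinct (chr10:128296139-128298752, minus strand). Plate 1 had 7 of 67 moLCs and 0 of 29 eLCs with a read, which allows a share of up to 10.3% of those eLCs as 3 of the total or 11.9% by Clopper-Pearson, and plate 2 had 1 of 36 moLCs and 3 of 50 eLCs. The 8 moLCs held 5491, 376, 360, 332, 296, 284, 284 and 179 reads, and the 3 eLCs held 338, 224 and 56. Apart from the 1 cell at 2489 CPM, the cells with a read lay between 17.2 and 130 CPM, and moLCs and eLCs overlapped. The summed level of 25.3 CPM in moLCs stood against 2.84 CPM in eLCs, which is 3.16 as a log2 ratio and 1.32 without the moLC that stood apart. On plate 1 the level in moLCs was at least 10.09 on the log2 scale above 3 reads over all eLCs, or at least 8.10 without that cell, and on plate 2 the log2 ratio was -0.75.

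Il27 encodes p28, the alpha subunit of IL-27 (chr7:126589010-126594941, minus strand), and 10.1% of its exon bases are shared with Apobr. On plate 1 it had reads in 3 of 67 moLCs and 1 of 29 eLCs, and on plate 2 in 3 of 36 moLCs and 1 of 50 eLCs. The 6 moLCs held 57 to 274 reads, and the 2 eLCs held 211 and 158. The log2 ratios were -0.63 on plate 1 and 2.40 on plate 2, with a single eLC on each plate behind them. All 8 cells with an Il27 read also had a Tnf read (2 reads in 1 of them), where 78% of all cells had one. For Il23a these were 10 of 11 cells, and for Il15 they were 3 of 5.

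Il15 encodes IL-15, which supports CD8 memory T cells and NK cells and is shown to them on the surface by its receptor alpha chain (chr8:82331632-82403222, minus strand). Its reads lay in 1 moLC of plate 1 (423 reads), 1 moLC of plate 2 (12 reads) and 3 eLCs of plate 2 (188, 200 and 224 reads), and 0 of 29 eLCs of plate 1 had one. Il15ra had no read in any of the 182 cells. The gene was too rarely read for a ratio between origins to describe more than these 5 cells.

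**Figure D4:**
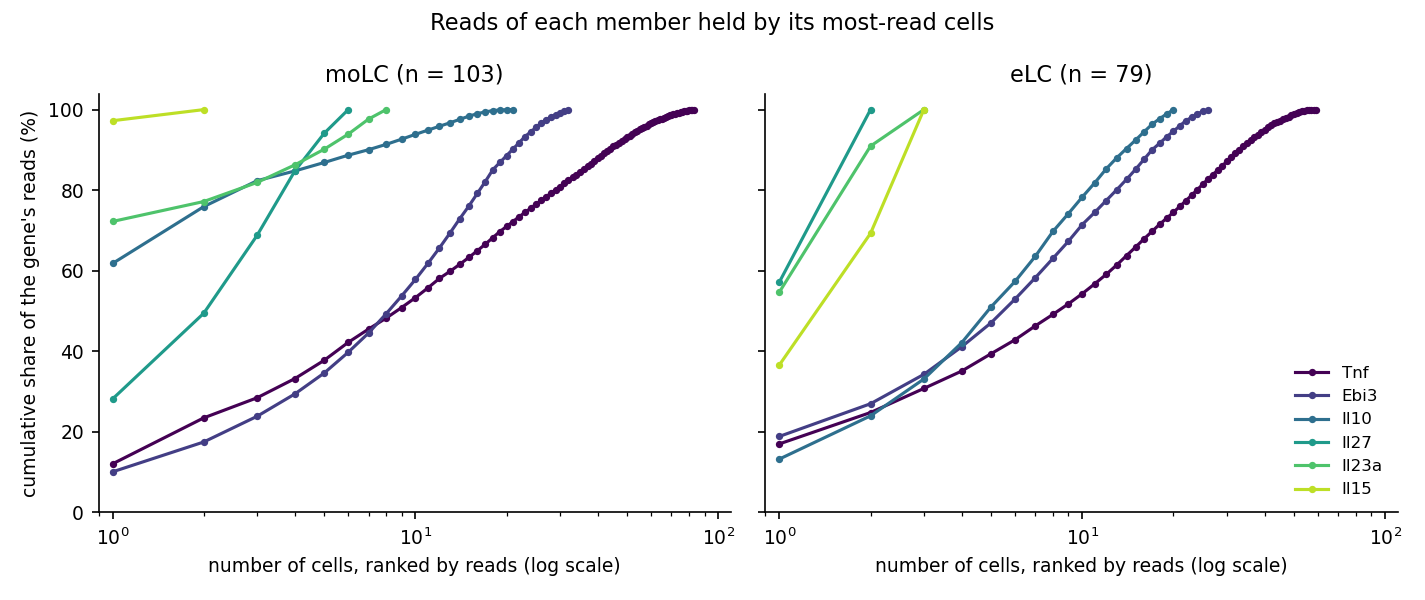
Cumulative share of a gene's reads (percent, vertical axis) against the number of cells ranked by their reads (horizontal axis, log scale), in moLCs and in eLCs, for the 6 genes with reads. In moLCs the first cell holds 61.8% of Il10 reads, 72.2% of Il23a reads and 97.2% of Il15 reads but 12.1% of Tnf and 10.1% of Ebi3 reads, while in eLCs the first cell holds 13.2% of Il10, 17% of Tnf, 18.9% of Ebi3, 36.6% of Il15, 54.7% of Il23a and 57.2% of Il27 reads.

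Il12a (chr3:68690644-68698547, plus strand), Il12b (chr11:44400063-44414033, plus strand) and Il6 (chr5:30013114-30019981, plus strand) had 0 reads in the 182 cells kept. Taken as 3 cells of the total, a count of 0 allows a share of up to 2.91% of moLCs and 3.80% of eLCs with a read, and the Clopper-Pearson upper bounds are 3.52% and 4.56%. As a summed level, 3 reads over an origin come to 0.010 CPM for moLCs and 0.014 CPM for eLCs. Their exons span 1701 bases for Il12a, 1967 for Il12b and 2428 for Il6, against 1639 for Tnf.

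The members that act as pairs were read together in few cells. No cell had reads of both subunits of IL-12, IL-23 or IL-35, since Il12a and Il12b were at 0, so 11 cells had the p19 transcript without that of p40. Both subunits of IL-27 were read in 3 cells: 1 moLC of plate 1 (57 reads of Il27 and 495 of Ebi3), 1 moLC of plate 2 (188 and 355) and 1 eLC of plate 2 (158 and 486). These 3 were 5.17% of the 58 cells with an Ebi3 read, where 4.4% of all cells had an Il27 read, and 37.5% of the 8 cells with an Il27 read, where 31.9% of all cells had an Ebi3 read. No cell with an Ebi3 read had a read of Il12a, the gene of its other known partner.

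**Figure D5:**
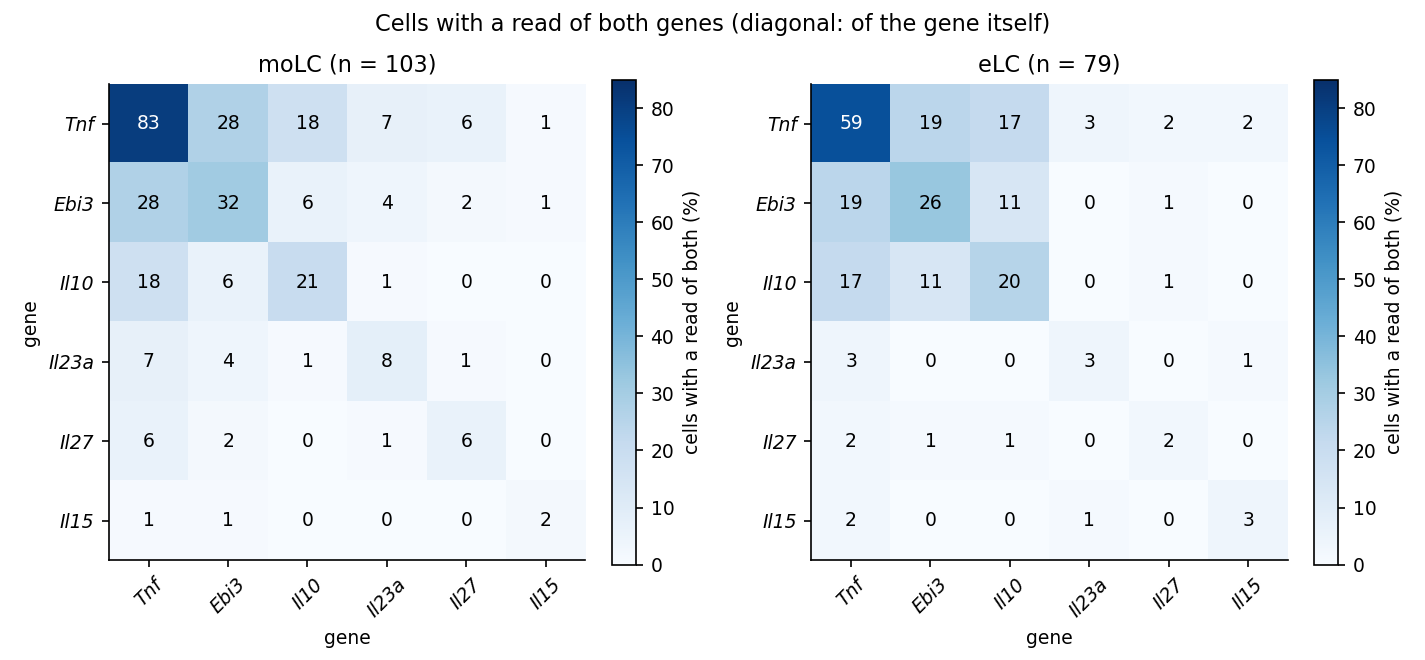
Number of cells with a read of both genes (figures in the squares, colour for the percent of cells), in moLCs and in eLCs, with the number of cells with a read of the gene itself on the diagonal. Tnf and Ebi3 share 28 moLCs and 19 eLCs, and Il10 and Ebi3 share 6 moLCs and 11 eLCs.

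A cell had a median of 1 of the 9 genes in moLCs (mean 1.48 ± 0.87, SD over cells) and 1 in eLCs (1.43 ± 0.92, SD over 79 cells). At least 1 was read in 92 moLCs (89.3%) and 67 eLCs (84.8%), and the most was 4, in 2 moLCs and 1 eLC. Tnf was read in 35 of the 41 cells with Il10 (85.4%) and in 47 of the 58 cells with Ebi3 (81%), beside 78% of all cells. Il10 and Ebi3 were both read in 6 of 32 moLCs with Ebi3 (18.8%) and in 11 of 26 eLCs with Ebi3 (42.3%), where Il10 was read in 20.4% of all moLCs and 25.3% of all eLCs. Across the 182 cells, which share library depth and plates, Spearman's rho of CPM was 0.064 between Tnf and Il10, 0.047 between Tnf and Ebi3 and 0.053 between Il10 and Ebi3.

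The genes whose levels followed Tnf most closely, among 8898 genes read in at least 10% of the cells, were Nfkbia (rho 0.539), Zfp36 (0.470), Klf10 (0.466), Sertad1 (0.461) and Atf3 (0.461). Nfkbia encodes the inhibitor of NF-kappaB, Zfp36 encodes tristetraprolin, which binds Tnf mRNA and speeds its decay, and Klf10 and Atf3 encode transcription factors that rise early in many stimulated cells. Taken within an origin, the rho of these 5 with Tnf lay between 0.452 and 0.481 in moLCs and between 0.390 and 0.626 in eLCs. The rho of Tnf with the total reads of a cell was 0.183. For Il10 the closest were Gm15247, Rab9, Lclat1, Rhoc and Ndor1 (0.249 to 0.277), and for Ebi3 they were Acad9, Ndufs4, Ifi205, Syngr2 and Ccl22 (0.272 to 0.295). These are weak correlations in sparse counts and are given as a description.

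Of 13 receptor genes for these cytokines, 7 were read in 25% or more of an origin's cells and none passed the size rule. By the mean of both origins, the highest per kb were Tnfrsf1b, for TNF receptor 2 (80.6 CPM per kb in moLCs and 83.4 in eLCs), Tnfrsf1a, for TNF receptor 1 (31.1 and 29.5), and Il10rb, a chain of the IL-10 receptor (25.2 and 30.6), though in moLCs Il2rg, for the common gamma chain, was above Il10rb (27 and 20.5). Il10ra, the chain that binds IL-10, had reads in 51.5% of the moLCs and 59.5% of the eLCs. Il15ra, Il23r and Il27ra were at 0 in all cells, and Il12rb1 had 47 reads, in 1 moLC. Reads of a receptor for TNF and for IL-10 were thus found in LCs of both origins, with log2 ratios of -0.05 for Tnfrsf1b, 0.08 for Tnfrsf1a and -0.28 for Il10rb. The ratio of Tnfrsf1a had opposite signs on the plates (-0.44 and 0.70), as did that of Tnfrsf1b (-0.23 and 0.03), and that of Il10rb was -0.37 and -0.25. The median log2 ratio of the 7 receptor genes at the mark was 0.08, with -0.08 on plate 1 and -0.09 on plate 2.

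Of 13 JAK, STAT and SOCS genes, which carry the signal of most of these receptors, 9 reached the 25% mark and 1 passed the size rule, Socs3, as higher in moLCs. Socs3 encodes an inhibitor of STAT3 signalling through the IL-6 receptor family. Its share of cells with a read was 60.2% (moLCs) and 35.4% (eLCs), and the highest moLC was at 1102 CPM and the highest eLC at 1223 CPM, so the ranges overlapped. On plate 1 its summed level was 87.6 CPM (moLCs) against 21.3 CPM (eLCs), and on plate 2 it was 142 against 66.7 CPM, with log2 ratios of 2.04 and 1.10. On plate 2 the ratio was 0.94 without 1 moLC, under 2-fold, and without the moLC that stood apart the pooled ratio was 1.13. Leaving out 1 eLC moved the ratio the other way, to 4.88 on plate 1, 1.95 on plate 2 and 1.80 pooled. The eLC of plate 1 held 86.7% of the Socs3 reads of eLCs there. Shares with a read were 49.3% of moLCs and 20.7% of eLCs on plate 1, and 80.6% and 44% on plate 2. By the mean of both origins, the highest per kb of this list were Stat6 (54.2 CPM per kb in moLCs and 50.2 in eLCs), Stat3 (51.8 and 49.7) and Socs1 (40.8 and 38.9), with log2 ratios of 0.11, 0.06 and 0.07, while in moLCs Jak2 (46 and 32.7) was above Socs1. The median log2 ratio of the 9 genes at the mark was 0.08, with 0.02 on plate 1 and 0.33 on plate 2.

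The 9 genes for control of cytokine mRNA and for release of TNF were all above the 25% mark, and none passed the size rule. By the same mean, Zfp36 was highest per kb (477 CPM per kb in moLCs and 380 in eLCs), followed by Zfp36l1 (88.1 and 67.3), both for proteins that destabilise mRNA, and by Mapkapk2 (48.9 and 35.2), for a kinase that holds tristetraprolin back. Zfp36 had a read in 96.1% of the moLCs and 100% of the eLCs, more widely than Tnf. The median log2 ratio of the list was 0.33, with 0.37 on plate 1 and 0.10 on plate 2. On both plates together its members ran from -1.26 (Rc3h1, for Roquin-1, which also destabilises mRNA) to 0.77 (Rhbdf2). On plates 1 and 2 Rc3h1 was at -0.67 and -2.90, and Rhbdf2 was at 0.71 and -0.38, with opposite signs. The median of the 6522 genes was -0.10, with -0.07 on plate 1 and -0.09 on plate 2.

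Of 17 other cytokine genes that act on T cell polarization, 4 reached the 25% mark and none passed the size rule. Il1b, for IL-1beta, had the highest level per kb in both origins (2374 CPM per kb in moLCs and 2077 in eLCs), far above Tnf, and it was read in 74.8% and 77.2% of cells. Il18 was at 320 and 400 CPM per kb. Il1rn, for the antagonist of the IL-1 receptor, was next by the mean of both origins, at 19.7 and 6.65 CPM per kb (Tgfb1 was above it in eLCs, at 7.91), with a log2 ratio of 2.95 on plate 1 and -0.36 on plate 2, and its pooled ratio fell from 1.57 to 0.80 without the moLC that stood apart. The median log2 ratio of the 4 genes at the mark was 0.10, with 0.51 on plate 1 and -0.24 on plate 2. Il13, Il17a, Tslp, Ifng, Ifnb1 and Tnfsf4 were at 0 in all cells. Il1b and Il18, which signal beside IL-12 and IL-23 in T cell responses, were thus read in most cells in which no IL-12 subunit was.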

How the data were processed

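Epidermal LCs were index sorted as single cells, cDNA was made with a Smart-Seq kit, and the authors aligned paired reads with STAR to mm10. The counting tool and gene annotation are not given in the sources used here. The authors deposited raw counts per gene and cell for each cell. In 8 deposited columns, 9 values were not whole, so these were treated like expected counts and rounded. Of the values above 0, 82.8% were even, and intervals treat reads as independent. Groups came from the origin labels, and plates are those of the labels. Counts were summed by origin and scaled to CPM. An origin at 0 was set to 3 reads. Exon lengths and coordinates came from GENCODE M21 (GRCm38), upstream sequences from RefSeq. Every member was named. Of the pathway lists, genes past the size rule and the 3 highest per kb by the mean of both origins were named, with any gene above them in 1 origin, and for likeness the 5 highest rho. One marker gene is not reported here. Members and lists were chosen with earlier results of these data known. No doublet caller was run, since cells were sorted singly. Tools were Python 3.11.15, numpy 2.4.6, pandas 2.3.3, scipy 1.17.1, matplotlib 3.10.9, R 4.3.3 and edgeR 4.0.16 (TMM factors). The size rule was tested on simulated counts. Alternatives were each plate, no mitochondrial filter, a minimum of 1000 genes, thinning to 2052512 reads (163 cells), 10 reads as the minimum, equal weight per cell, TMM, totals without the 50 most-read genes, other thresholds and each cell left out.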

Additional observations from a re-analysis of the deposited data

Results flagged for a closer look

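Reads of Il6 were seen outside the 182 cells compared. One moLC of plate 2, left out because 9.97% of its reads were on mitochondrial genes, held 176 reads of Il6 (307 CPM), the gene's only reads in any cell of either origin. The same cell held 26 reads of Il23a, and another moLC of plate 2 left out at 14% mitochondrial reads held 54. The third cell left out, at 29.3%, had no read of any of the 9 genes. No Tnf, Il10 or Ebi3 read was present in these 3 cells, which had 233438 to 920430 reads in total.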

How the results depend on the processing

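The number of members past the size rule was 1 (Il10) in all cells, 2 on plate 1 alone (Tnf and Il10) and 2 on plate 2 alone (Il10 and Ebi3), where 1 plate had to pass in place of both. It ranged from 0 to 1 with each cell left out in turn and was 0 without the moLC with the most Il10 reads, an alternative chosen after seeing the data. It was 1, Il10, under the other 10 alternatives. Members read in enough cells numbered 3, and 5 or 1 when the share asked for was 5% or 50%. The median number of members read in an eLC was 1, and 2 on plate 1 alone. TMM factors moved every pooled log2 ratio up by 0.10, and totals without the 50 most-read genes moved it up by 0.07. The direction of the log2 ratio was kept under all 9 alternatives in cells and scaling for Il10 (0.59 to 2.36) and Tnf (0.33 to 1.26) and under 8 of 9 for Ebi3, Il15, Il23a and Il27, which changed sign on 1 plate. Setting an origin at 0 to no value changed no pooled ratio, since no member with reads had 0 in an origin. No paired analysis was possible because the labels name no animal, so cells of both origins could not be matched by host. Counts of 0 limit shares to 2.91% of moLCs and 3.80% of eLCs (3 cells of the total), or 3.52% and 4.56% by Clopper-Pearson.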
